A study of Mus musculus with 6 samples.

Results

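The genes described here encode the machinery that brings proteins into mitochondria, and they were measured in colon B cells, obtained by sorting, of lenvatinib-treated and DMSO-treated mice. They were every row of the expression table whose symbol begins with Timm or Tomm and a digit, with Pam16, Samm50, Grpel1, Pmpca, Pmpcb, Chchd4 and Gfer, which gave 32 of 20591 genes. Lenvatinib blocks receptor tyrosine kinases, among them the VEGF and FGF receptors, and DMSO is the solvent used as its control. Each group had 3 RNA sequencing libraries, labelled as biological replicates. The title of the series places the work in a study of colitis, B cell traffic and the endothelial adhesion molecule MAdCAM-1. The strain, sex, age, dose, length of treatment, inflammatory state and sorting gate are missing from the sources used here, as is whether separate animals gave the libraries. A p-value below thus rests on the spread among these 6 libraries, and that spread could be technical.

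Most mitochondrial proteins are encoded in the nucleus, made in the cytosol and threaded through membrane channels. The TOM complex forms the gate of the outer membrane, SAM inserts barrel proteins there, TIM23 passes proteins with a cleavable leader towards the matrix, and the PAM motor pulls them in. TIM22 inserts carrier proteins into the inner membrane, the small TIMs escort hydrophobic precursors across the intermembrane space, and a disulfide relay traps small cysteine-rich proteins there. Activated B cells are known to enlarge and remodel their mitochondria, which needs imported proteins.

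Of the 30 import genes that could be tested, 4 rose in lenvatinib libraries and 0 fell, and all changes were small. The test was limma on log2(scaled FPKM + 1), with FPKM being fragments per transcript length and library depth, scaled between libraries, and with p-values adjusted over all 9937 tested genes at a threshold of 0.05. The 4 genes were Timm8a1 and Timm8b, chaperones of the intermembrane space, Tomm40, the channel of the outer membrane, and Pam16, a regulatory subunit of the import motor. Over all tested genes 10.4 percent were called higher and 8.21 percent lower, against 13.3 percent and 0 percent of the import genes. The share called higher was thus close to that of all genes. The log2 change was above 0 in 24 import genes and below 0 in 6, with a median of 0.11, against a median of 0.01 and 51.5 percent above 0 over all tested genes. Lenvatinib libraries all lay above DMSO libraries for 13 import genes and all below for 1, Tomm20, where 18.9 percent and 18.2 percent of all tested genes showed those patterns. Without a filter on low values, or without trend and robust moderation, 2 import genes were called higher, Timm8a1 and Tomm40 in both cases. Over all tested genes 1038 were called higher and 816 lower, and limma-voom on recovered reads gave 1141 and 1366.

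**Figure D1:**
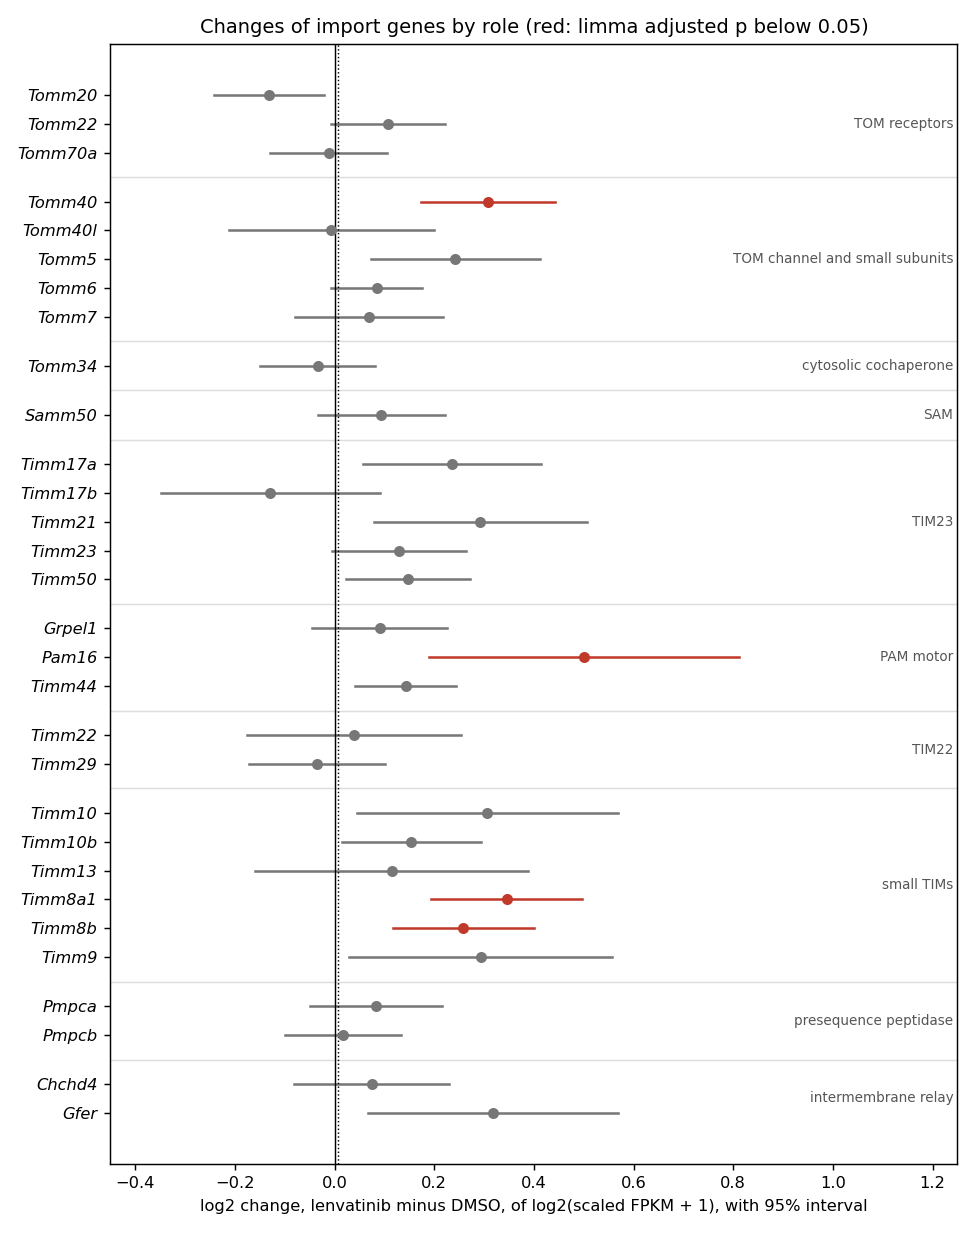
Log2 change of each tested import gene, lenvatinib minus DMSO, on the log2(scaled FPKM + 1) scale, with its 95% interval from limma, grouped by role; the dotted line is the median of all tested genes. The 4 genes called higher are in red, and their changes run between 0.26 and 0.50.

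The sorted cells carried B cell transcripts throughout, and transcripts of other cells differed between the groups. The summed scaled FPKM of 12 B cell markers was 2625 to 2668 in lenvatinib libraries and 3094 to 3141 in DMSO libraries, and 10 of the 12 fell. The sum of 11 T cell markers was 150 to 152 in lenvatinib libraries and 48.6 to 52.6 in DMSO libraries, that of 10 natural killer and innate lymphoid markers 155 to 158 in lenvatinib and 29.9 to 37.04 in DMSO libraries, and that of 12 colon epithelial markers 63.2 to 67.0 in lenvatinib and 14.3 to 15.5 in DMSO libraries. Of the tested members of those lists 7 of 10, 8 of 8 and 8 of 8 rose. Krt8, Krt19, Cdh1, Guca2a and Klrb1c were below 1 in every DMSO library. They were tested only through their lenvatinib libraries, so their part of these counts was partly set by the filter. Macrophage and dendritic cell markers summed to 71.4 to 80.6 in lenvatinib and 60.7 to 63.9 in DMSO libraries (2 of 8 tested rose), neutrophil markers to 11.96 to 17.1 in lenvatinib and 6.43 to 7.44 in DMSO libraries (2 of 3 rose), and plasma cell markers to 345 to 360 in lenvatinib and 369 to 375 in DMSO libraries (1 of 7 rose and 1 fell). A set of 18 proliferation genes summed to 439 to 447 in lenvatinib and 372 to 384 in DMSO libraries, and 5 of the 18 rose. The shares over all tested genes were 10.4 percent called higher and 8.21 percent called lower. The plasma cell shares, 14.3 percent higher and 14.3 percent lower, rested on 1 gene each. No marker in these lists was at 0 in every library, but some were near it. Below 1 in all libraries were 4 of 7 neutrophil, 3 of 12 colon epithelial and 2 of 11 macrophage and dendritic cell markers. So were 1 of 10 natural killer and innate lymphoid and 1 of 8 plasma cell markers. Retnlg, 1 of the 2 neutrophil markers that rose, had 0.0623, 0 and 1.37 in DMSO libraries. The part of these differences in the import gene values was not tested, and in bulk RNA fewer cells of a type and less RNA per cell cannot be told apart.

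The starts of the 4 genes called higher are shown because these are the members on which the count rests. Each window holds 250 bases before and 50 bases after the annotated start, 5′ to 3′ on the gene's own strand, from RefSeq on the build GRCm38.p6, which is not the build of the expression values. Capitals mark the letters searched on both strands: the NRF1 core GCATGCG, the ETS and GABP core CCGGAAG, the E-box CACGTG, the YY1 core AAGATGG and the CCAAT box CCAAT, the last of which was added after the sequences were seen.
Tomm40 (chr7:19715380-19715679, minus strand): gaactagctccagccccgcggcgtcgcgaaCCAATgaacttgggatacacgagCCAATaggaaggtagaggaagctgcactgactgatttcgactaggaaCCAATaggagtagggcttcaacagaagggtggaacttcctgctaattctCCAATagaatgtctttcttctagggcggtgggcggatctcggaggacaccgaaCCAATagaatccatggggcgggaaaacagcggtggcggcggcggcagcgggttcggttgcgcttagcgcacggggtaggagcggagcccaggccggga
Timm8a1 (chrX:134541621-134541920, minus strand): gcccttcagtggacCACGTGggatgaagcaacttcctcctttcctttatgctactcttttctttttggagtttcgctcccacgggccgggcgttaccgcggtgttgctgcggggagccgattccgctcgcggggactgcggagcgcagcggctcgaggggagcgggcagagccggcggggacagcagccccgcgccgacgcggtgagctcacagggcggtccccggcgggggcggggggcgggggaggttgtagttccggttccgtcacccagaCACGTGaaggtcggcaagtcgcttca
Timm8b (chr9:50603651-50603950, plus strand): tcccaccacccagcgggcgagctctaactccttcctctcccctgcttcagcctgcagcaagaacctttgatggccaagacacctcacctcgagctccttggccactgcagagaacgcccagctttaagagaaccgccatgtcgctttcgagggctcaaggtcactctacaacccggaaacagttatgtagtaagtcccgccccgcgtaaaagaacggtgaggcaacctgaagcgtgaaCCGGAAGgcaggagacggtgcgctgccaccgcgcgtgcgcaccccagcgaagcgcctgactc
Pam16 (chr16:4624897-4625196, minus strand): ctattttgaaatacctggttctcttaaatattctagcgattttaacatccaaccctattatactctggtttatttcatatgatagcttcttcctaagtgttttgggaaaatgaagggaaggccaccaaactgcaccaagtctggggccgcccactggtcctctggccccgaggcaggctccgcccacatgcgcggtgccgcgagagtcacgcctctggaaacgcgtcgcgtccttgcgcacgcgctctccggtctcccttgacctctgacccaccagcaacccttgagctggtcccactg

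The 4 windows had no searched motif in common. Tomm40 held 5 copies of CCAAT, beginning 220, 197, 150, 101 and 48 bases before the start. Of 7959 tested genes with a promoter entry 0.678 percent held at least as many. Since CCAAT was added after the sequences were seen, this share is no test of rarity. Timm8a1 held the E-box at 236 bases before and at 25 bases after the start. Timm8b held the ETS core 12 bases before the start, and Pam16 held none of the motifs. In the 27 tested import genes with an entry the ETS core was present in 11, or 40.7 percent, against 23.2 percent of tested genes and 9.93 percent of all 27025 genes in the promoter table. The E-box was present in 4 of the 27, or 14.8 percent, against 12.4 percent of tested genes and 8.09 percent of all. The NRF1 core was found in 7.41 percent of import genes, 8.03 percent of tested genes and 4.01 percent of all, and the YY1 core in 11.1, 9.22 and 7.28 percent of those sets. CCAAT was found in 29.6 percent of import genes, 43.1 percent of tested genes and 41.1 percent of all. Promoter entries matched 29 of the 32 import genes by symbol, and Timm21, Tomm7 and Tomm40l were without one.

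As levels per length, the import genes ranged over scaled FPKM means of 3.42 for Tomm40l to 74.0 for Tomm22 across the 6 libraries. Their median of 20.8 lay above the median of 9.66 for all tested genes, and 26 of the 30 exceeded it. After Tomm22 came Tomm6 at 52.2, Tomm5 at 50.2, Timm23 at 41.4 and Tomm7 at 40.5, so 4 of the 5 most abundant members were subunits of the TOM complex. The least abundant tested genes after Tomm40l were Timm21 at 4.63, Timm22 at 6.06 and Gfer at 8.49. A tested member was covered by 153 to 5053 reads in a library, with a median of 965. The summed scaled FPKM of all 32 genes was 758, 777 and 768 in lenvatinib replicates 1, 2 and 3. It was 706, 715 and 679.7 in DMSO replicates 1, 2 and 3, so the groups did not overlap. This was not particular to these genes, since deposited FPKM summed over the whole expression table did not overlap either. Those sums were 435785 to 437465 in lenvatinib and 416977 to 426646 in DMSO libraries.

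**Figure D2:**
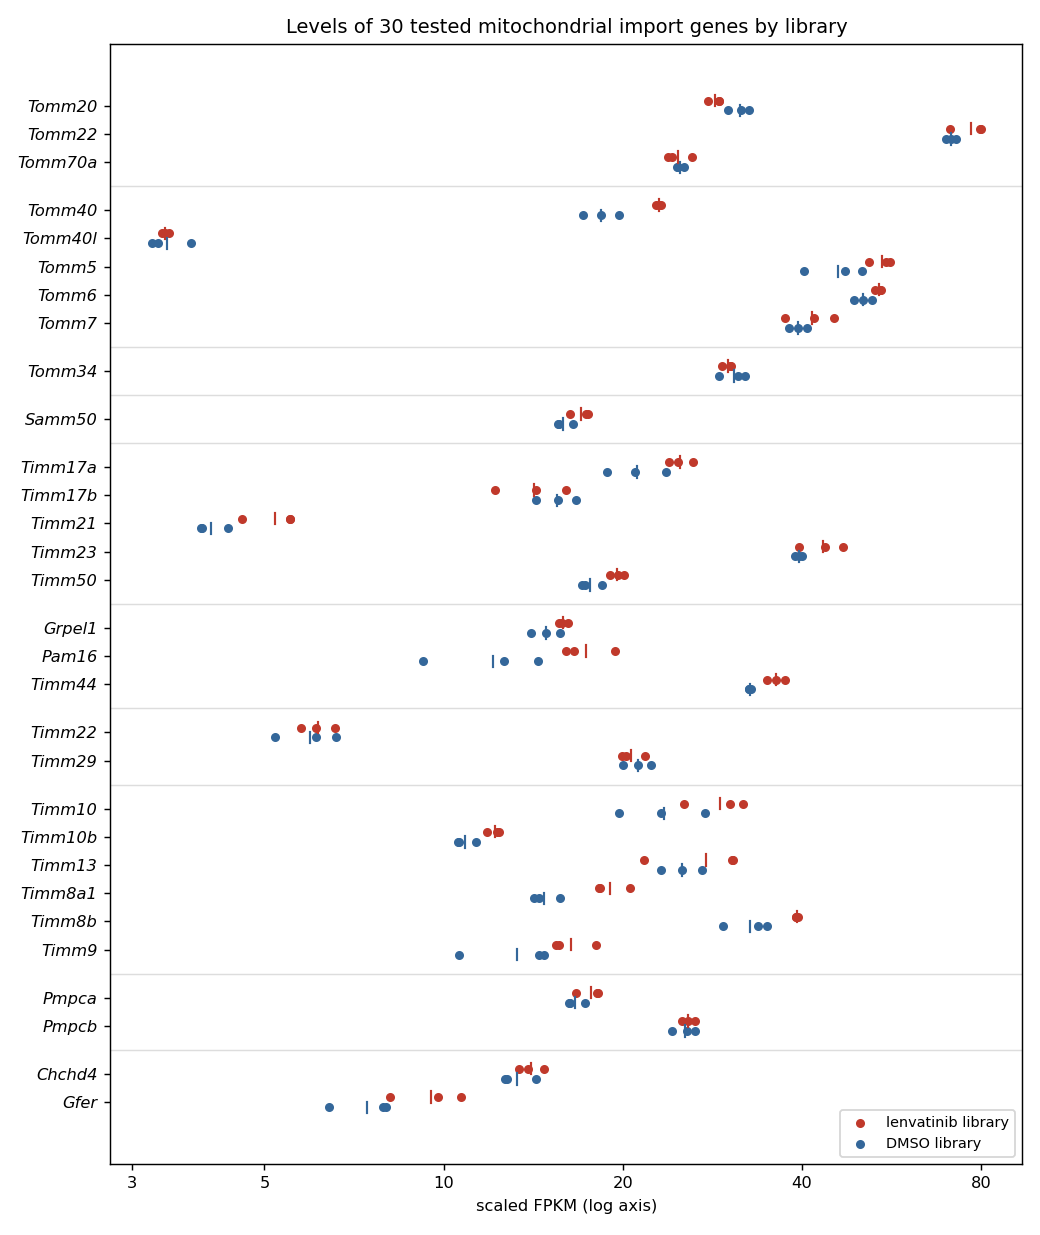
Scaled FPKM (log axis) of the 30 tested import genes in each library, with lenvatinib in red above DMSO in blue for each gene and short bars at the group means; grey lines separate the roles. Tomm22 stands highest and Tomm40l lowest, and the differences between the groups are small beside the differences between genes.

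Among the receptors of the TOM complex, none passed the test. Tomm20, which recognises the cleavable leaders of precursors, had 29.0, 29.1 and 27.8 scaled FPKM in lenvatinib libraries and 31.6, 32.6 and 30.1 in DMSO libraries. The lenvatinib libraries were all lower, and the log2 difference was −0.13 (SE 0.049, limma adjusted p = 0.0963, and 0.0199 in limma-voom, where it was the import gene called lower). Tomm22, the central receptor that joins the other parts of the complex, had 70.8, 79.8 and 79.98 in lenvatinib libraries and 72.5, 69.8 and 71.1 in DMSO libraries. Lenvatinib replicate 1 lay within the DMSO range and the other two lay above it (log2 difference 0.11, limma adjusted p = 0.177, and 0.0306 without that library). Tomm70a, the receptor for carrier precursors delivered by chaperones, averaged 24.7 ± 1.24 in lenvatinib and 24.9 ± 0.337 in DMSO libraries, and its log2 difference had a 95% interval of −0.13 to 0.11 (values after ± are SDs over 3 libraries throughout). Reads of Tomm20 are uncertain, since 435 bases of its transcript matched the pseudogene Gm14494 at 99.5 percent identity.

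Tomm40, the channel-forming barrel, rose. It had 23.0, 22.8 and 23.2 scaled FPKM in lenvatinib libraries and 18.4, 17.1 and 19.7 in DMSO libraries. All lenvatinib libraries were above all DMSO libraries, which gave 0.31 as the log2 change (limma adjusted p = 0.00698, SE 0.060), and the call held in 16 of 16 alternatives. Its exons share 258 bases with the antisense transcript Gm20512, and the use of strand in counting was not given. Tomm40l, its less abundant paralogue, averaged 3.41 ± 0.0433 in lenvatinib and 3.43 ± 0.285 in DMSO libraries, with a 95% interval of −0.21 to 0.20 for the log2 difference. The ratio of Tomm40 to Tomm40l was 6.75, 6.77 and 6.72 in lenvatinib libraries and 5.55, 4.56 and 6.09 in DMSO libraries. These ratios did not overlap (log2 difference 0.33, two-sided exact permutation p = 0.1, the smallest that 3 against 3 can give, and 0.3 after adjustment over 3 paralogue pairs).

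The small subunits Tomm5, Tomm6 and Tomm7, which steady the assembled channel, did not pass the test. Tomm5 had 56.2, 55.3 and 51.9 in lenvatinib libraries and 50.4, 47.3 and 40.4 in DMSO libraries. The groups did not overlap, with DMSO replicate 3 the lowest, and the log2 difference was 0.24 (SE 0.075, limma adjusted p = 0.052). Its adjusted p was 0.039 with a mean filter of 5, 0.0392 with FPKM as deposited and 0.025 without DMSO replicate 1, but 0.159 without a filter on low values. Without DMSO replicate 3 the log2 difference was 0.15 (limma adjusted p = 0.105). Tomm6 had 54.3, 53.0 and 54.0 in lenvatinib and 50.6, 52.5 and 48.9 in DMSO libraries, which also did not overlap (log2 difference 0.08, limma adjusted p = 0.187). Tomm7 averaged 41.5 ± 3.88 in lenvatinib and 39.4 ± 1.33 in DMSO libraries, with lenvatinib replicate 1 below all DMSO libraries. Its log2 difference was 0.07, and it was 0.14 without that library and 0.01 without lenvatinib replicate 3. Tomm34, a cytosolic partner of HSP70 and HSP90 named for this complex, averaged 30.01 ± 0.522 in lenvatinib and 30.8 ± 1.60 in DMSO libraries (log2 difference −0.03). Samm50, the barrel of the SAM complex, averaged 17.03 ± 0.634 in lenvatinib and 15.9 ± 0.505 in DMSO libraries (log2 difference 0.09, limma adjusted p = 0.29).

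In the TIM23 complex 0 of 5 genes passed the test and 4 had positive log2 differences. Timm23, the channel core, had 39.6, 43.7 and 46.8 in lenvatinib libraries and 38.9, 40.05 and 39.6 in DMSO libraries. The lowest lenvatinib library lay among the DMSO libraries (log2 difference 0.13, limma adjusted p = 0.173). It was 0.19 without lenvatinib replicate 1 (limma adjusted p = 0.0425) and 0.07 without lenvatinib replicate 3 (limma adjusted p = 0.432). A stretch of 1121 bases of Timm23 matched the predicted gene Gm10273 at 99.9 percent identity, so its reads are uncertain. Timm50, the receptor that receives precursors from TOM, averaged 19.6 ± 0.517 in lenvatinib and 17.6 ± 0.757 in DMSO libraries without overlap (log2 difference 0.15, limma adjusted p = 0.0983). Timm21, which links TIM23 to TOM and to the respiratory chain, averaged 5.21 ± 0.539 in lenvatinib and 4.06 ± 0.249 in DMSO libraries, also without overlap (log2 difference 0.29, limma adjusted p = 0.0615, and 0.0382 without lenvatinib replicate 3). With a pseudocount of 5 the Timm21 difference was 0.17.

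Timm17a and Timm17b are alternative forms of the other channel subunit, and neither passed the test. Timm17a had 24.8, 23.9 and 26.2 in lenvatinib libraries and 23.6, 21.0 and 18.8 in DMSO libraries. The groups did not overlap, although the margin between the nearest libraries was narrow (log2 difference 0.24, SE 0.079, limma adjusted p = 0.0694, and 0.0222 without DMSO replicate 1). Timm17b had 16.1, 14.3 and 12.2 in lenvatinib libraries and 14.3, 16.7 and 15.6 in DMSO libraries, which overlapped (log2 difference −0.13, limma adjusted p = 0.405). It was −0.03 without lenvatinib replicate 3, −0.22 without lenvatinib replicate 1 and −0.08 without DMSO replicate 2. The ratio of Timm17a to Timm17b was 1.54, 1.67 and 2.16 in lenvatinib libraries and 1.65, 1.26 and 1.21 in DMSO libraries. These ratios overlapped, and their log2 difference was 0.38 (two-sided exact permutation p = 0.2, and 0.3 after adjustment over the 3 pairs).

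In the import motor Pam16 rose. Pam16, which holds the motor's J protein at the channel, had 19.4, 16.6 and 16.03 in lenvatinib libraries and 14.4, 12.7 and 9.24 in DMSO libraries. The groups did not overlap, and its log2 change of 0.50 was the largest of the import genes, with the largest error among them (SE 0.14, 95% interval 0.19 to 0.81, limma adjusted p = 0.0336). It rested on 245 to 341 reads in lenvatinib and 153 to 217 reads in DMSO libraries. The call was lost without lenvatinib replicate 1 (adjusted p = 0.11), lenvatinib replicate 2 (0.0734), DMSO replicate 2 (0.0574) or DMSO replicate 3 (0.0582, where the log2 change was 0.33), without a filter on low values (0.127) and without trend and robust moderation (0.0839). A stretch of 534 bases is identical between Pam16 and the predicted gene Gm9803, so its reads are uncertain. Pam16 also shares 455 exon bases with Glis2 on the opposite strand, which averaged 0.0814 in lenvatinib and 0.0138 in DMSO libraries.

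Timm44, the scaffold that ties the motor to the channel, had 36.2, 37.5 and 34.9 in lenvatinib libraries and 32.5, 32.8 and 32.7 in DMSO libraries. All lenvatinib libraries were higher (log2 difference 0.14, SE 0.045, limma adjusted p = 0.0544, and 0.0371 with FPKM as deposited). Grpel1, the nucleotide exchange factor of matrix HSP70, averaged 15.9 ± 0.299 in lenvatinib and 14.9 ± 0.839 in DMSO libraries (log2 difference 0.09, limma adjusted p = 0.341; the difference was 0.05 without DMSO replicate 3). The ratio of Pam16 to Timm44, a pair chosen after the values were seen, was 0.536, 0.442 and 0.459 in lenvatinib libraries and 0.443, 0.385 and 0.283 in DMSO libraries, which overlapped.

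The small TIMs held 2 of the 4 genes that rose. All 6 tested members had positive log2 differences, between 0.11 and 0.35, and the lenvatinib libraries were all above the DMSO libraries for 4 of them. Over all tested genes 51.5 percent had positive differences, 18.9 percent had all lenvatinib libraries higher and 10.4 percent were called higher. Timm8a1, whose human counterpart is mutated in a syndrome of deafness and dystonia, had 18.3, 20.5 and 18.3 in lenvatinib libraries and 14.5, 15.7 and 14.2 in DMSO libraries. The groups lay well apart (log2 change 0.35, SE 0.067, limma adjusted p = 0.00713), and the call held in 16 of 16 alternatives. A stretch of 612 bases of Timm8a1 is identical to the predicted gene Gm9797, so its reads are uncertain. Timm8a2, its close relative, was at 0.0433 ± 0.0403 in lenvatinib and 0.0899 ± 0.0753 in DMSO libraries and was too low to be tested.

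Timm8b, the paralogue of Timm8a1, had 39.1, 39.2 and 39.4 in lenvatinib libraries and 29.5, 33.7 and 35.0 in DMSO libraries. The lenvatinib libraries were close to each other and all higher (log2 change 0.26, SE 0.063, limma adjusted p = 0.02). The call was lost without lenvatinib replicate 1, 2 or 3 (adjusted p = 0.0546, 0.0578 and 0.0518), in limma-voom (0.176), without a filter on low values (0.0702) and without trend and robust moderation (0.062), with log2 changes of 0.25 to 0.26 in these alternatives. It shares 81 exon bases with Nkapd1 on the opposite strand, which averaged 16.1 in lenvatinib and 18.3 in DMSO libraries. The ratio of Timm8a1 to Timm8b overlapped between the groups, with means of 0.485 in lenvatinib and 0.454 in DMSO libraries (log2 difference 0.10, two-sided exact permutation p = 0.5, and 0.5 after adjustment over the 3 pairs).

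The other small TIMs did not pass the test. Timm10 had 25.3, 30.2 and 31.8 in lenvatinib libraries and 23.2, 27.4 and 19.7 in DMSO libraries, which overlapped (log2 difference 0.31, SE 0.12, limma adjusted p = 0.101). Without DMSO replicate 2 it was 0.42 (limma adjusted p = 0.0313), and without DMSO replicate 3 it was 0.19 (limma adjusted p = 0.276). Timm9, which builds the ring-shaped chaperone together with Timm10, had 18.0, 15.7 and 15.4 in lenvatinib libraries and 10.6, 14.5 and 14.8 in DMSO libraries. These did not overlap, and DMSO replicate 1 stood below the rest (log2 difference 0.29, limma adjusted p = 0.117, and 0.15 with adjusted p = 0.269 without that library). The ratio of Timm9 to Timm10 had a mean of 0.571 in lenvatinib and 0.578 in DMSO libraries. It ranged from 0.486 to 0.711 in lenvatinib and from 0.457 to 0.748 in DMSO libraries. This pair was also chosen after the values were seen. Timm10b, a relative bound to the TIM22 complex, averaged 12.2 ± 0.292 in lenvatinib and 10.8 ± 0.442 in DMSO libraries without overlap (log2 difference 0.15, limma adjusted p = 0.119). Timm13, the partner of Timm8a1, had 30.6, 30.5 and 21.7 in lenvatinib libraries and 25.2, 27.1 and 23.2 in DMSO libraries. Lenvatinib replicate 3 was the lowest of the 6, and the log2 difference was 0.11 with it (limma adjusted p = 0.569) and 0.27 without it (limma adjusted p = 0.0373). It was 0.03 without lenvatinib replicate 1, 0.04 without lenvatinib replicate 2 and 0.06 without DMSO replicate 3.

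**Figure D3:**
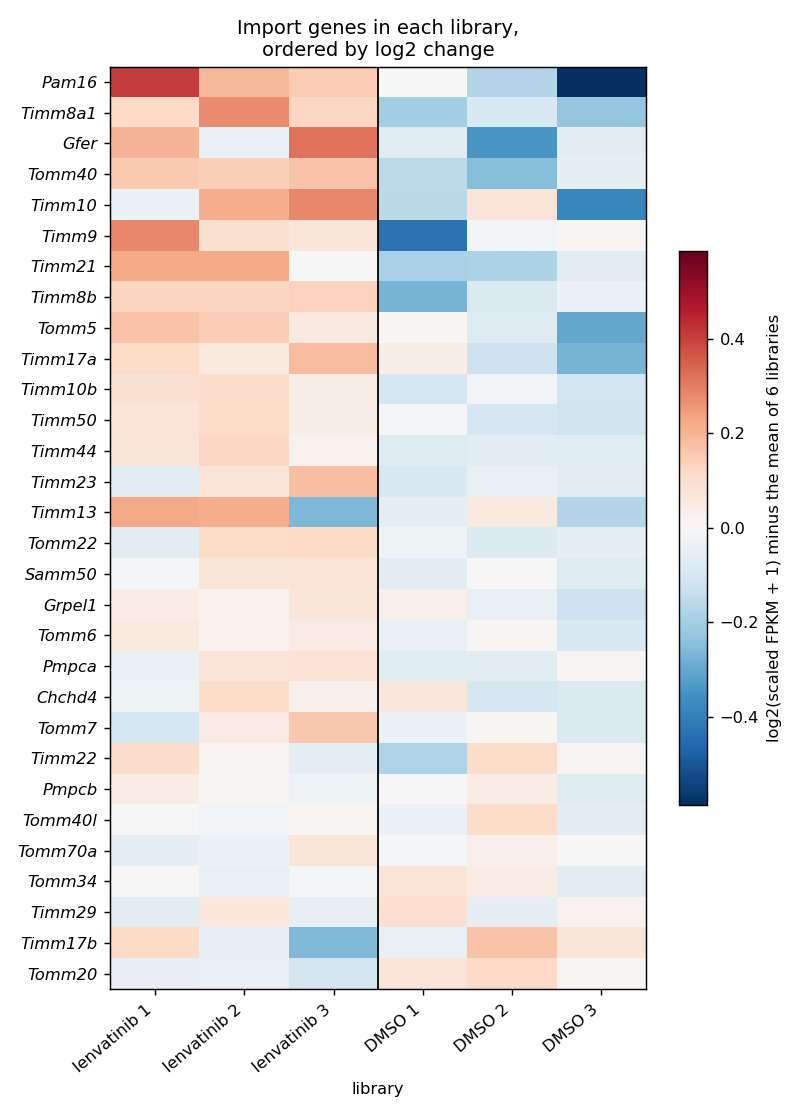
Level of each tested import gene in each library, as log2(scaled FPKM + 1) minus the mean of the 6 libraries, with lenvatinib left of the black line, DMSO right of it and genes ordered by log2 change. Timm8a1 and Tomm40, near the top, are red in lenvatinib and blue in DMSO libraries, Pam16 is near 0 in DMSO replicate 1, and single libraries such as lenvatinib replicate 3 for Timm13 depart from their group.

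In the carrier pathway neither gene passed. Timm22, the channel for carrier proteins, averaged 6.14 ± 0.403 in lenvatinib and 5.97 ± 0.697 in DMSO libraries, with a 95% interval of −0.17 to 0.25 for the log2 difference. Timm29, a subunit of the same complex in mammals, averaged 20.7 ± 1.03 in lenvatinib and 21.2 ± 1.16 in DMSO libraries, with an interval of −0.17 to 0.10. The matrix peptidase that clips the leader after import has subunits encoded by Pmpca and Pmpcb. Pmpca averaged 17.7 ± 0.853 in lenvatinib and 16.6 ± 0.587 in DMSO libraries (log2 difference 0.08, limma adjusted p = 0.37), and Pmpcb averaged 25.7 ± 0.66 in lenvatinib and 25.4 ± 1.12 in DMSO libraries (0.02, limma adjusted p = 0.854). Both pairs of groups overlapped.

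In the disulfide relay neither gene passed. Chchd4, the oxidoreductase that traps its substrates by making disulfides, had 13.4, 14.8 and 13.9 in lenvatinib libraries and 14.3, 12.7 and 12.8 in DMSO libraries (log2 difference 0.07, limma adjusted p = 0.511). It was 0.04 without lenvatinib replicate 2, 0.13 without DMSO replicate 1 and 0.04 without DMSO replicate 2. Gfer, the oxidase that recharges Chchd4, had 9.77, 8.13 and 10.7 in lenvatinib libraries and 7.92, 6.41 and 7.99 in DMSO libraries. The Gfer groups did not overlap, by a small margin between the nearest libraries (log2 difference 0.32, SE 0.11, limma adjusted p = 0.0799, and 0.0399 without lenvatinib replicate 2). The remaining row found by the rule, Tomm6os, is a transcript from the strand opposite Tomm6. It averaged 0.375 ± 0.106 in lenvatinib and 0.34 ± 0.253 in DMSO libraries, was too low to be tested, and cannot be told apart from Tomm6 in their 219 shared exon bases unless strand was used. Reads are also uncertain for Tomm6, which shares 656 identical bases with Gm21981 on the same strand, for Gfer, which matched Dst over 573 bases at 99.8 percent identity, and for Timm17a, which matched the pseudogene Gm7180 over 516 bases at 96.3 percent. Copies or overlapping exons were also found for Grpel1, Pmpca, Samm50, Timm9, Timm10b, Timm13, Timm17b, Timm29, Tomm7, Tomm40l and Tomm70a.

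Among 18 further genes of import and membrane insertion, 3 rose and 0 fell, or 16.7 percent higher against 10.4 percent of all tested genes, with a median log2 change of 0.04. This list was chosen with results of these data already known. Hspa9, the matrix HSP70 that drives the motor, had 159, 159 and 159 in lenvatinib libraries and 134, 132 and 135 in DMSO libraries (log2 change 0.24, SE 0.026, limma adjusted p = 0.000263). Dnajc15, a J protein related to Dnajc19, had 13.2, 18.3 and 20.1 in lenvatinib libraries and 8.71, 11.2 and 11.2 in DMSO libraries (log2 change 0.67, SE 0.15, limma adjusted p = 0.0127). Both genes had lenvatinib libraries all above DMSO libraries. Mtx2, a partner of Samm50 at the outer membrane, averaged 12.8 ± 0.831 in lenvatinib and 10.5 ± 0.235 in DMSO libraries (log2 change 0.26, limma adjusted p = 0.0276). Dnajc19, a J protein that Pam16 binds, averaged 5.57 ± 1.02 in lenvatinib and 5.35 ± 1.38 in DMSO libraries. The exchange factor Grpel2 averaged 9.53 ± 1.10 in lenvatinib and 9.77 ± 0.754 in DMSO libraries. Dnajc19 and Grpel2 were chosen as partners of members after their values were seen. Oxa1l, which inserts proteins from the matrix side, averaged 19.4 ± 0.806 in lenvatinib and 23.2 ± 2.71 in DMSO libraries (log2 difference −0.24, limma adjusted p = 0.0712). The count of 3 fell to 1 without a filter on low values and to 1 without lenvatinib replicate 2.

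Proteins that the disulfide relay imports, and the enzymes that fold and degrade imported proteins, were counted next. Of 19 relay substrates 3 rose and 0 fell, or 15.8 percent higher against 10.4 percent of all tested genes, with a median log2 change of 0.06. Chchd2, an intermembrane space protein that also binds the respiratory chain, had 207, 213 and 202 in lenvatinib libraries and 154, 151 and 146 in DMSO libraries (log2 change 0.46, SE 0.032, limma adjusted p = 2.11e-05). Ndufs5, a subunit of respiratory complex I, averaged 34.6 ± 3.76 in lenvatinib and 25.6 ± 3.93 in DMSO libraries (log2 change 0.43, limma adjusted p = 0.0273), and Triap1, part of a lipid carrier of the intermembrane space, averaged 28.0 ± 0.937 in lenvatinib and 24.0 ± 1.03 in DMSO libraries (log2 change 0.21, limma adjusted p = 0.0214). Lenvatinib libraries were all higher for these 3 genes. Of 14 genes of matrix folding and proteolysis 2 rose and 0 fell, or 14.3 percent higher, the chaperonin pair Hspd1 and Hspe1, with log2 changes of 0.38 and 0.37. The proteases Lonp1 and Htra2 had log2 differences of 0.14 and 0.16 (limma adjusted p = 0.164 and 0.146), and the median of the list was 0.03.

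Beside the other nuclear-encoded mitochondrial families, the import genes lay between the mitochondrial ribosome and the respiratory chain in share called higher. Of 78 mitochondrial ribosomal protein genes 3 rose and 1 fell, or 3.85 percent higher, with a median log2 change of 0.07. Mrps6, of the small ribosomal subunit, averaged 19.1 ± 1.00 in lenvatinib and 9.72 ± 1.201 in DMSO libraries (log2 change 0.91, limma adjusted p = 0.000106), and Mrpl44, of the large subunit, was the gene that fell (8.26 ± 0.877 in lenvatinib and 10.7 ± 0.566 in DMSO libraries). Of 78 tested nuclear respiratory chain genes 30 rose and 0 fell, or 38.5 percent higher, with a median of 0.15. Atp5b, a catalytic subunit of ATP synthase, averaged 328 ± 3.91 in lenvatinib and 282 ± 5.14 in DMSO libraries (log2 change 0.21, limma adjusted p = 0.00052). Lenvatinib libraries lay above DMSO libraries for 11 of the 78 ribosomal and 38 of the 78 respiratory genes, against 13 of the 30 import genes. Over all tested genes 18.9 percent showed this pattern and 10.4 percent were called higher. The lists also differed in level. In lenvatinib libraries the summed scaled FPKM was 1474 to 1479 for 78 ribosomal genes and 6145 to 6368 for 84 respiratory genes. The counts describe the lists, and the differences between the lists were not tested. Among 10 transcription factors and coactivators of mitochondrial gene expression, 8 were tested, 0 rose and 1 fell. That was 12.5 percent lower, resting on 1 gene, against 8.21 percent of all tested genes. Myc, a growth regulator that also acts on mitochondrial genes, had 134, 134 and 136 in lenvatinib libraries and 169.9, 169.6 and 172 in DMSO libraries (log2 change −0.34, SE 0.026, limma adjusted p = 3.47e-05). Its lenvatinib libraries were all lower. Tfam, the packaging factor of mitochondrial DNA, averaged 32.2 ± 0.538 in lenvatinib and 35.9 ± 2.69 in DMSO libraries (log2 difference −0.15, limma adjusted p = 0.103), and Yy1, a transcription factor of many housekeeping genes, averaged 33.3 ± 1.16 in lenvatinib and 29.7 ± 1.24 in DMSO libraries (log2 difference 0.16, limma adjusted p = 0.0585).

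**Figure D4:**
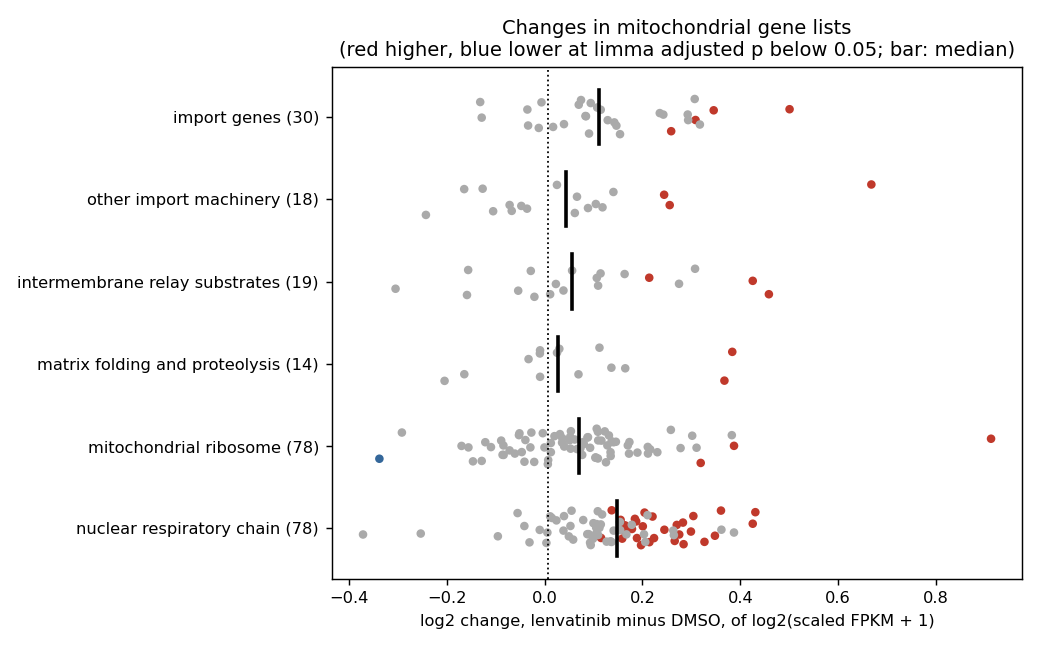
Log2 change, lenvatinib minus DMSO, of every tested gene in 6 mitochondrial lists, with black bars at the medians and a dotted line at the median of all tested genes; the number of tested genes follows each name. Import genes have 4 red points of 30 and a median of 0.11, and nuclear respiratory chain genes 30 of 78 and a median of 0.15.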

How the data were processed

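B cells sorted from mouse colons were profiled by RNA sequencing in 3 lenvatinib and 3 DMSO libraries, made from TRIzol-extracted total RNA using the VAHTS Universal V10 kit, as stated per the labels' protocols. The authors deposited FPKM values for 20591 genes, and HTSeq and the build GRCm39 are named in the submitters' processing notes. For the aligner, annotation and strand setting, nothing is stated (not given in the sources used here). All 6 value columns were matched to samples by the column names in the descriptions.

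FPKM values were divided by median-of-ratios factors (0.992 to 1.01) computed over the genes whose FPKM reached 1 in all 6 libraries. A gene was tested where its scaled FPKM reached 1 in 3 or more libraries, which kept 9937, on log2(scaled FPKM + 1) with limma 3.58.1 in R 4.3.3 (trend, robust, two-sided, Benjamini-Hochberg over all tested genes, threshold 0.05). A change on this scale understates that of low genes. Whole reads were recovered from the FPKM steps to a tolerance of 1e-05 for 17396 of 19715 genes above 0 and for all tested genes, as the smallest whole numbers, so a few may be true reads divided by a common factor. Totals were 26635279 to 31655500 reads per library. Replicates of a group differed by more than counting noise, with a chi-square per gene of 6.84 to 10.2 where noise alone gives 1. Shared sequence was searched with blastn 2.17.0 (at least 150 bases at 95 percent identity) and exon overlap taken from the GENCODE M21 annotation of GRCm38. Both the fit and the read recovery were run on simulated data. For the fit these had normal noise set by gene level alone, so they cannot show how reliable the calls are in the real libraries. The alternatives were 16, of which 6 left out a library.

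The members, lists and rules were chosen with earlier results of these data known. Named were the members past the threshold, the 4 most abundant and the 2 with the largest difference among the others, the paralogue pairs and up to 4 genes per further list; values of further members in each library were added after they were seen. Tomm20l and Trac were not analysed here.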

Additional observations from a re-analysis of the deposited data

How the results depend on the processing

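The median log2 change of the import genes was positive in 16 of 16 alternatives, and 2 to 6 of them were called higher. The count was 2 without a filter on low values and 2 without trend and robust moderation, against 4. Leaving out 1 library gave 3 to 6 called higher, 0 called lower, and a median of 0.081 to 0.142, with 673 to 827 of all genes called higher, 563 to 632 called lower and 1 to 3 genes of the other import machinery called higher. The median was 0.085 after scaling to summed FPKM and 0.085 with quantile normalization, where the median of all tested genes was −0.017 and −0.016. Limma-voom called 1 import gene lower, against 0, and 1366 of all genes lower. The other import machinery had 1 gene called higher without a filter. The cause of these shifts was not tested.

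Genes with differences near 0 changed sign. Pmpcb was at −0.0087 after scaling to summed FPKM, −0.0031 with quantile normalization and between −0.018 and 0.044 without 1 library. Without 1 library Timm22 ranged between −0.041 and 0.10, Timm29 between −0.074 and 0.00089, Tomm40l between −0.040 and 0.045 and Tomm70a between −0.051 and 0.013. With FPKM as deposited Tomm40l was at 0.0074 and Tomm70a at 0.0052.

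Deviations of same-numbered libraries from their group means correlated by −0.0067 to 0.0065 over the tested genes. No broad shift shared by replicate number was thus seen. Whether the samples were paired in the experiment cannot be told from these values. With the replicate block 6 import genes were called higher, Gfer and Tomm5 in addition. Pam16 had 153 to 341 reads in a library, and the source of its large error was not tested.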
